A study of Mus musculus with 36 samples.

Results

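Potassium channel genes of mouse heart are described here, taken as every gene whose symbol begins with Kcn, leaving out pseudogene and antisense names. The deposited table lists 96 such rows under 94 symbols, among 36128 gene models in all, and each symbol was represented by its row with the highest mean level. Of the 94 genes, 38 reached a level of at least 1 FPKM (sequenced fragments divided by transcript length and by library size) in 2 or more of 36 libraries, and these 38 are the members described. The other 56 genes were not described: 53 of them never reached 1 FPKM, and Kcna6, Kcnip3 and Kcnt1 reached it in 1 library each. Kcna6 had 1.10 FPKM in its highest library and 0.994 in the next, just outside the threshold, while Kcnj14 lay just inside it with 2.40 and 1.88.

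Potassium channels let potassium ions leave or enter the cell down their electrochemical gradient, and in heart muscle they set the resting potential and repolarize the membrane after each beat. Voltage-gated pores (such as the Kcna, Kcnd, Kcnh and Kcnq genes) carry the transient outward and delayed rectifier currents, inward rectifiers (Kcnj genes) hold the resting potential or answer to acetylcholine and ATP, and tandem-pore channels (Kcnk genes) carry background current. Accessory subunits such as those of the Kcne, Kcnab and Kcnip genes alter the gating or surface level of a pore. The 38 members comprised 13 voltage-gated pores, 9 inward rectifiers, 3 tandem-pore channels, 4 calcium- or sodium-activated channels and 9 accessory subunits.

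The study compared hearts of CD-1 mice in the days after birth, in adults, after removal of heart tissue (resection) and in culture. Whole ventricle was taken from unoperated mice at postnatal day 0 (P0), P4 and P7 and from adults, and from operated mice, resected or sham, at day 1 and day 7 after surgery. These ventricle samples formed 8 groups of 2 libraries. Isolated cardiomyocytes, enriched on Miltenyi columns, were taken at P0 and P4 and from operated mice at day 7, and formed 4 groups of 3 libraries. Dissociated cardiomyocytes of adult hearts, called explants here, were collected at 0, 24, 48 and 72 h of culture, with n = 2 in each of 4 groups. No genetic change is named for any group. The age at operation, the age of the adults and whether replicates were separate animals are not stated, and the 2 ways of library preparation and 2 sequencers mentioned are not tied to single libraries. P-values therefore measure the spread between these libraries, which may be technical.

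Between 10454 and 13134 gene models reached 1 FPKM in a library, and the depth of the libraries is unknown because FPKM carry no counts. All 7 cardiomyocyte markers were present in every group. Their summed level was 22730 to 34250 FPKM in ventricle libraries, 6695 to 24480 in isolated cells and 24500 to 27540 in explants at 0 h. The whole ventricle libraries also carried the label cardiomyocytes but held endothelial markers (166 to 385 FPKM summed over 8 genes) and fibroblast markers (439 to 1361 over 8 genes). Isolated cells were not free of either, with 21.3 to 558 FPKM for endothelial and 122 to 2191 for fibroblast markers. In such samples fewer cells of a type and less RNA per cell cannot be told apart.

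Kcnh2, Kcnq1, Kcnj2, Kcnj5, Kcnj11, Kcnj12 and Kcnk3 were at or above 1 FPKM in all 36 libraries, and they include the pores of the rapid (Kcnh2) and slow (Kcnq1) delayed rectifiers. In FPKM, a scale per transcript length, Kcng2 led in P0 ventricle with 73.9 ± 6.21 (SD, n = 2), followed by Kcne1 at 66.8 ± 15.97 and Kcnh2 at 48.4 ± 7.99. The libraries of Kcng2 and Kcne1 overlapped, so their order at P0 was not resolved. Kcng2 encodes a subunit that forms no channel alone and modifies the pores it joins, and its row in the table covers only 706 bases. In the adult the order was another, with Kcnk3 first at 129 ± 20.2 and Kcnip2 next at 89.9 ± 16.6 (SD, n = 2). The adult libraries of Kcnk3 (115 and 143) lay above those of Kcnip2 (78.2 and 102). At the other end, 13 members never exceeded 3 FPKM, among them the Kv beta subunit Kcnab3, with 1.36 in its highest library, and the sodium-activated Kcnt2 with 1.92. The heat map of 35 members shows the levels by group.

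**Figure D1:**
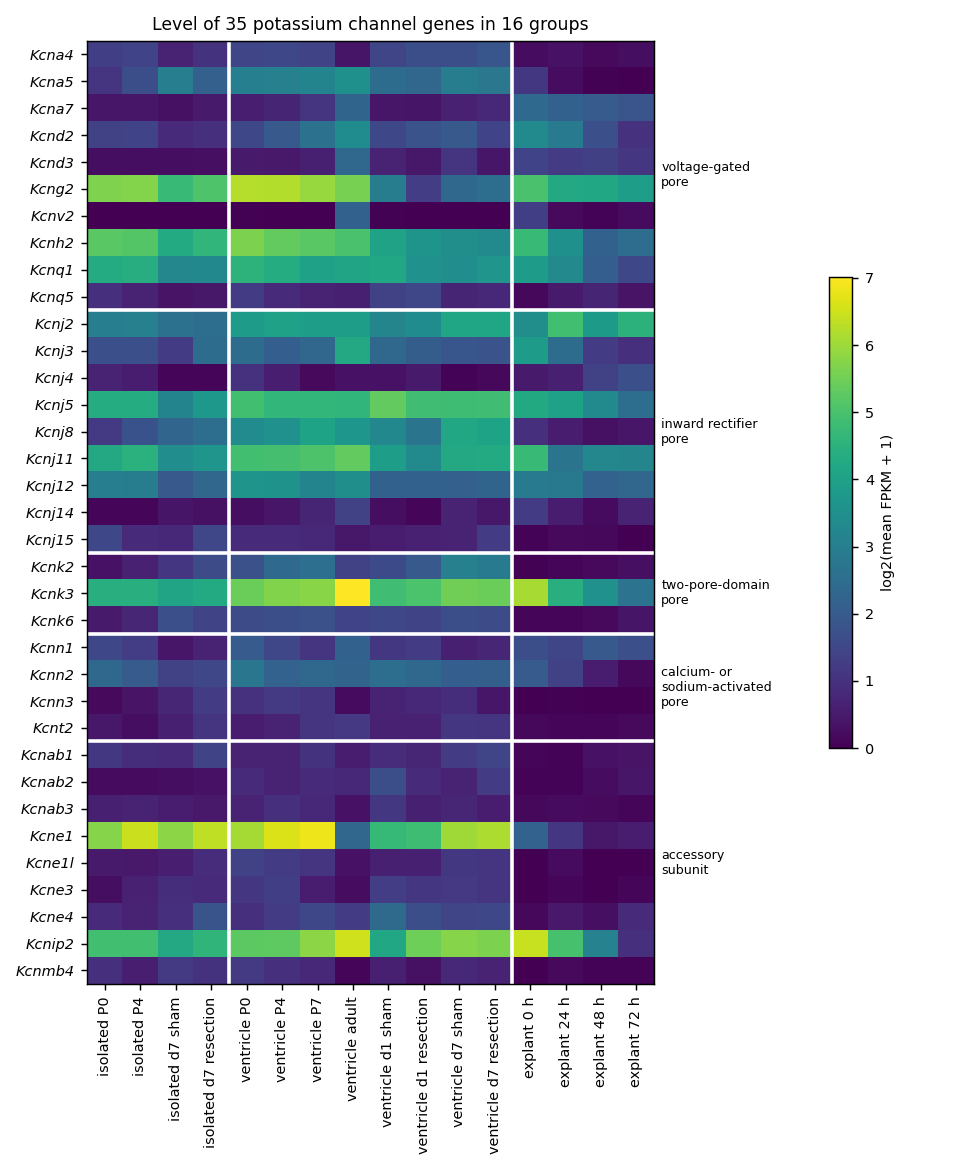
Level of 35 of the 38 potassium channel genes (rows, grouped by kind of subunit) in each of the 16 groups (columns), as the colour of log2(mean FPKM + 1), with n = 3 in isolated groups and n = 2 in the others. Kcne1 is bright in neonatal groups and dark in the adult ventricle and explants, Kcnip2 and Kcnk3 darken from 0 h to 72 h of culture, and Kcnv2 reaches 1 FPKM in adult ventricle and 0 h explants and in no other group.

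The first comparison asked how the members differed between the ventricle of newborn and adult mice. Genes of the fast transient outward current were higher in the adult, together with the background channel Kcnk3 and the acetylcholine-gated Kcnj3, while the neonatal accessory subunit Kcne1 and 3 other accessory genes were lower. Of 35 members tested, 10 were higher and 10 lower in the adult. Over all 14306 gene models tested, 56.9% were called, 13.4% higher and 43.6% lower, close to the 57.1% of members called. The median difference of the members was -0.11 on the log2 scale against -0.36 for all gene models. Calls rest on limma at a Benjamini-Hochberg adjusted p under 0.05 over all gene models, two-sided, and differences are of log2(FPKM + 1), which understates the change of low genes.

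Kcnip2, whose product KChIP2 binds Kv4 pores and raises their surface level, stood at 41.2 and 33.1 FPKM in the P0 ventricle libraries and at 78.2 and 102 in the adult. The groups did not overlap, and Kcnip2 rose by 1.25 (SE 0.24, adjusted p = 8.2e-04). Kcnd2, the Kv4.2 pore of the fast transient outward current, had 1.79 and 1.99 FPKM at P0 and 12.2 and 6.93 in the adult. Both adult libraries were above both P0 libraries although they differed from each other, and the difference was 1.82 (SE 0.23, adjusted p = 3.2e-05). Kcnd3, the Kv4.3 pore, rose from 0.488 and 0.346 to 4.39 and 3.72 FPKM, by 1.83 (SE 0.20, adjusted p = 9.6e-06). Kcnd3 would not have passed the level filter without its adult libraries, so it had to differ and its p-value adds little. Kcna4, the pore of the slow transient outward current, went the other way, from 1.70 and 1.87 FPKM to 0.307 and 0.335, a difference of -1.07 (adjusted p = 1.7e-05). For Kcnd3 and Kcna4 alike, the P0 and adult libraries did not overlap. At P7 Kcnd2 was already at 5.83 and 4.78 FPKM, while Kcnd3 was at 0.714 and 0.340, close to its P0 libraries.

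Among the other voltage-gated pores, Kcna5, the ultrarapid delayed rectifier, differed by 0.50 (7.75 and 6.72 against 10.7 and 10.5 FPKM), and the Shaker-related Kcna7 by 1.69. Kcnv2, a silent subunit that forms no channel alone, was close to 0 in both P0 libraries (0.0379 and 0.00817 FPKM) and reached 4.36 and 2.71 in the adult. Kcnh2 fell from 54.0 and 42.7 to 29.5 and 32.4 FPKM, a difference of -0.62 (adjusted p = 0.013), a call lost after median-of-ratios scaling, in the single fit of all libraries, and without P0 or adult replicate 1. Kcnq1 differed by -0.44 (adjusted p = 0.11).

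Of the inward rectifiers, Kcnj3 (Kir3.1, a pore of the acetylcholine-gated channel) rose from 6.56 and 2.54 FPKM to 19.2 and 16.4, by 1.86 (SE 0.28, adjusted p = 1.3e-04). Its partner Kcnj5 (Kir3.4) stood at 32.4 and 25.1 FPKM at P0 and 25.5 and 21.7 in the adult, a difference of -0.27 (adjusted p = 0.10). The ratio of Kcnj3 to Kcnj5 was 0.152 ± 0.0720 at P0, 0.164 ± 0.00312 at P7 and 0.754 ± 0.00116 in the adult ventricle (SD, n = 2). The strong inward rectifiers Kcnj2 and Kcnj12, which hold the resting potential, differed by 0.09 and -0.13 and were not called. Kcnj11, the pore of the ventricular ATP-sensitive channel, differed by 0.45 (33.3 and 24.0 against 36.3 and 42.0 FPKM, adjusted p = 0.13).

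Kcnk3, the acid-sensitive background channel TASK-1, rose from 53.0 and 32.4 to 115 and 143 FPKM, by 1.60 (SE 0.24, adjusted p = 1.1e-04). The mechanosensitive background channel Kcnk2 and the related Kcnk6 were not called. Kcne1, the subunit that joins Kcnq1 to form the slow delayed rectifier, showed the largest difference of any member, from 78.1 and 55.5 FPKM at P0 to 3.25 and 4.63 in the adult, -3.77 on the log2 scale (SE 0.20, adjusted p = 3.1e-08). It had been higher still at P7, at 119 and 107 FPKM. Against its partner, the ratio of Kcne1 to Kcnq1 was 3.003 ± 0.415 at P0, 7.595 ± 1.51 at P7 and 0.244 ± 0.0366 in the adult (SD, n = 2). Other accessory genes fell too: the difference was -1.07 for Kcnmb4, a subunit of the large-conductance calcium-activated channel, -0.998 for Kcne1l and -0.85 for Kcne3. It was -0.81 for the small-conductance channel Kcnn3 and -0.61 for the KCNQ-family pore Kcnq5, whose row overlaps that of Gm7658, which averaged 76.1 FPKM. The labels do not say whether counting used strand, so reads of that pair could be mixed.

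**Figure D2:**
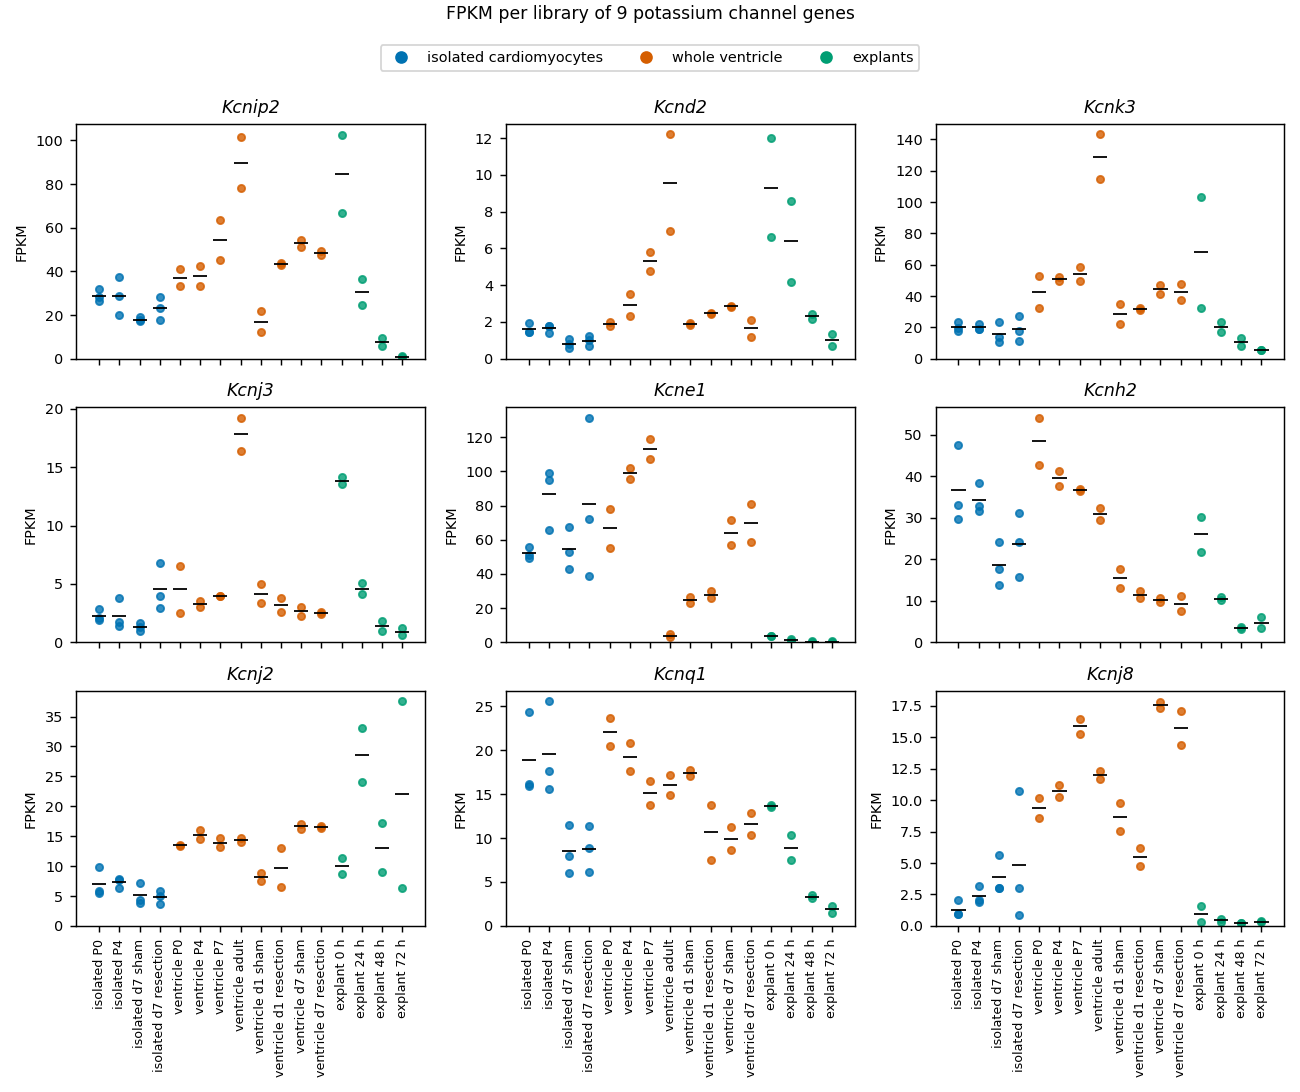
FPKM of 9 members in each of the 36 libraries (points coloured by preparation, linear axes starting at 0), with the group mean as a horizontal mark, in 16 groups of 2 or 3 libraries. Kcnip2, Kcnd2, Kcnk3 and Kcnj3 are highest in adult ventricle and in explants at 0 h and low by 72 h, and Kcne1 drops from 113 FPKM at P7 to 3.94 in the adult ventricle.

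The split between higher and lower members depended on the scaling of the libraries. With median-of-ratios scaling, which moved the median of all gene models from -0.36 to 0.00, 15 members were higher and 6 lower, and with quantile normalization 14 and 7. The shares of all gene models called under these scalings are not reported here, so these counts have no background beside them. Of the higher genes, Kcnv2, Kcnj3, Kcnd3, Kcnd2, Kcna7, Kcnk3 and Kcnip2 each stayed called under every alternative in which it was tested, libraries left out included, though Kcnv2 did not pass the filter without either adult library. The same held for Kcne1, Kcna4, Kcnmb4, Kcne1l and Kcnn3 among the lower genes. Kcnq5 lost its call with median-of-ratios or quantile scaling and without P0 replicate 1 or adult replicate 2, and Kcne3 without P0 replicate 1. Without their adult libraries Kcnv2 and Kcnd3 would not have passed the filter, so these had to differ. Kcnmb4 passed through P0 replicate 1 (1.63 FPKM) and day 7 resection replicate 1 (1.02), so the filter favoured its lower call. Cell composition markers differed between the same groups. All 8 macrophage markers were higher in the adult (30.3 to 38.9 FPKM summed at P0, 143 to 192 in the adult), 7 of 8 atrial markers were lower (375 to 1297 against 337 to 452, with Bmp10 at 0 in the adult), and 3 of 7 cardiomyocyte markers were higher (23060 to 25380 against 27170 to 28740). Of 8 fibroblast markers 4 were lower and 1 higher (745 to 1047 against 439 to 445), of 8 of smooth muscle and pericytes 4 were lower and 1 higher (470 to 488 against 315 to 460), and of 8 endothelial markers 2 were lower (293 to 360 against 227 to 253). Their part in the potassium channel differences was not tested.

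For 4 of the genes that rose, the following lines give the RefSeq promoter bases upstream of their start in build GRCm38.p6, since these are members that were higher in the adult and lower after 72 h of culture. For Kcna5 the adult call was lost in the single fit of all 36 libraries and without P0 replicate 2 or adult replicate 1, and without either 0 h library it did not pass the filter in explants. Kcnk3 was also higher in the adult and lower after 72 h of culture, but is named only. Each line gives 250 bases, 5′ to 3′ on the gene's strand, from chr6:126535556-126535805 (minus strand) for Kcna5, chr6:21215096-21215345 (plus strand) for Kcnd2, chr19:45816064-45816313 (minus strand) for Kcnip2 and chr2:55435720-55435969 (plus strand) for Kcnj3. Capitals mark matches to the GC box GGGCGG, the E-box CAGCTG and the MCAT element CATTCC, none of which overlap one another.
Kcna5: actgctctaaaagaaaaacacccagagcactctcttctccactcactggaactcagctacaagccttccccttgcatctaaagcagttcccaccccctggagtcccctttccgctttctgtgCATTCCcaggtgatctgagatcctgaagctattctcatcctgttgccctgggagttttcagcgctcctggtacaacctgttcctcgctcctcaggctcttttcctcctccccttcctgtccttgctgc
Kcnd2: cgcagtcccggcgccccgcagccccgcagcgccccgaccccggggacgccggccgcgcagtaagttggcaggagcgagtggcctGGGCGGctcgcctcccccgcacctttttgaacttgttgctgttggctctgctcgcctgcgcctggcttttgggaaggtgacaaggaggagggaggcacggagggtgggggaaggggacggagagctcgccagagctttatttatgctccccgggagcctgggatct
Kcnip2: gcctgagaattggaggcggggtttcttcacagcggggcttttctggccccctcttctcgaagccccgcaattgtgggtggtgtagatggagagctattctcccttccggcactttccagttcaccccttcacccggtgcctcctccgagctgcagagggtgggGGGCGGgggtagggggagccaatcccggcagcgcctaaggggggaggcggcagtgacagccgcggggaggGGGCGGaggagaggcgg
Kcnj3: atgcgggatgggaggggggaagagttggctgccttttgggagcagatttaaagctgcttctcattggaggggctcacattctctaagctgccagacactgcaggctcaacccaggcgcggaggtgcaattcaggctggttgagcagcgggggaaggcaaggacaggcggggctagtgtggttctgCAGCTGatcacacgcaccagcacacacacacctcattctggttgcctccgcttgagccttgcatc
Windows were found for 25 of the 38 members, 35 windows in all as some genes have several starts. Kcnip2 held 2 GC boxes, 87 and 17 bases upstream of the start, and Kcnd2 held 1, at 166 bases. Kcna5 held an MCAT element at 128 bases and Kcnj3 an E-box at 65 bases. Searched on both strands, the GC box occurred in 14 of 35 member windows (40%) and in 32.7% of all 32851 windows, the E-box in 9 (25.7% against 13%), and MCAT in 3 (8.57% against 12.6%). The GATA motif AGATAA and the MEF2 motif occurred in none of the member windows, against 9.99% and 1.69% of all windows. GC content was 68.8% for Kcnd2, 66.8% for Kcnip2, 58.4% for Kcnj3 and 53.2% for Kcna5, beside a median of 52.4% over all windows. These matches describe the letters only.

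Over the first week after birth the ventricle already showed part of these differences. At P7, 7 of 35 tested members were higher and 1 was lower than at P0 (22.9% of members), where 12.6% of all gene models were called, 4.35% higher and 8.21% lower. Kcnd2 rose from 1.79 and 1.99 to 5.83 and 4.78 FPKM, by 1.12 (SE 0.23, adjusted p = 0.0083). Kcna7 rose by 0.51. Kcnj8, the ATP-sensitive pore best known from vascular smooth muscle and pericytes, went from 10.2 and 8.57 to 16.4 and 15.3 FPKM, by 0.70 (adjusted p = 0.010). Kcnk2 rose by 0.84, from 2.42 and 2.24 to 5.19 and 4.75 FPKM, and Kcne1 by 0.77.

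The member that fell was Kcnn1, a small-conductance calcium-activated channel, from 3.25 and 2.85 FPKM at P0 to 1.14 and 0.984 at P7, a difference of -0.97 (adjusted p = 0.0011). Its P4 libraries, 2.23 and 1.45 FPKM, lay between, yet the adult was back at 3.65 and 3.42. Kcnk2 and Kcne1 went the opposite way, high at P7 and not in the adult. Of 8 markers of smooth muscle and pericytes, Rgs5 and Pdgfrb were higher and 3 others lower at P7, with summed levels of 470 to 488 FPKM at P0 and 503 to 524 at P7, and 5 of 8 fibroblast markers were higher (745 to 1047 against 1266 to 1361). Of 8 atrial markers 4 were lower (375 to 1297 against 100 to 186, with Bmp10 at 0 at P7). Their part in these differences was not tested. The count of 8 rested on single libraries: it was 2 without P0 replicate 2 or P7 replicate 1, 4 without P7 replicate 2 and 5 without P0 replicate 1, while Kcnn1 stayed called each time and Kcna7 was called in none of these 4 fits. In a single fit of all 36 libraries 3 members were called, Kcnd2, Kcnn1 and Kcnj4. The call of Kcnd2 was lost without replicate 1 of P0 or of P7. Those of Kcnk2 and Kcnj8 were lost without P0 replicate 2 or P7 replicate 1. That of Kcne1 was lost without P0 replicate 2 or either P7 library, and with no filter.

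In isolated cardiomyocytes no member was called between P4 and P0 among 28 tested with limma, where 0.00761% of all gene models were called. At an unadjusted p under 0.05 there was 1, Kcnj15, an inward rectifier, with 2.25, 2.73 and 0.672 FPKM at P0 and 0.413, 0.867 and 1.10 at P4. These groups overlapped. Kcne1 stood at 49.5, 51.1 and 56.0 FPKM in isolated cells at P0 and at 99.1, 95.0 and 65.9 at P4, groups that did not overlap but whose difference of 0.70 was not called. The ratio of Kcne1 to Kcnq1 in isolated cells was 2.85 ± 0.481 at P0 and 4.50 ± 0.784 at P4 (SD, n = 3), beside ventricle values of 3.003 ± 0.415 and 5.20 ± 0.853 (SD, n = 2).

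The culture series asked what happens to adult cardiomyocytes kept in a dish. After 72 h most of the channel genes measurable at 0 h were lower, led by Kcnip2, Kcnk3 and Kcnj3, and 2 genes, Kcnj4 among them, were higher. Of 20 members tested, 13 were lower and 2 higher, against 9.07% lower and 46.8% higher among all 12246 gene models (55.8% called). The median of the tested members was -1.49 on the log2 scale and that of all gene models 0.76. The other 18 members did not pass the filter of 1 FPKM in 2 explant libraries. The filter keeps genes that were high at any time point, so these counts do not speak for all 38. Kcna5 and Kcne1 passed it only through their 0 h libraries and so had to be lower later.

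Kcnip2 had 103 and 66.99 FPKM at 0 h, 36.4 and 24.4 at 24 h, 9.44 and 6.0 at 48 h, and 0.705 and 1.12 at 72 h. No 2 of these 4 groups overlapped, and the 72 h difference was -5.46 (SE 0.33, adjusted p = 1.8e-04). Its pore partner Kcnd2 fell from 11.99 and 6.61 FPKM to 1.34 and 0.670, a difference of -2.33 (adjusted p = 0.0026). The ratio of Kcnd2 to Kcnip2 went from 0.108 ± 0.0129 at 0 h to 0.319 ± 0.128 at 48 h and 1.25 ± 0.920 at 72 h (SD, n = 2), as the accessory subunit fell by more than the pore. Kcnd3 did not follow: it had 2.04 and 1.24 FPKM at 0 h and 1.43 and 0.866 at 72 h and was not called.

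The delayed rectifier pores fell together. Kcnq1 went from 13.5 and 13.8 to 2.23 and 1.52 FPKM, a difference of -2.36 (adjusted p = 6.2e-04), and Kcnh2 from 30.3 and 21.7 to 6.06 and 3.39, a difference of -2.26 (adjusted p = 0.0011). For the silent subunit Kcng2 the difference was -1.05, a call lost with no filter, with the compared groups fitted alone, and without 0 h replicate 1 or 72 h replicate 2. Kcna5 was at 1.31 and 1.11 FPKM at 0 h and at 72 h was listed at 0 in 1 library and at 0.0254 in the other.

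Among inward rectifiers, Kcnj3 fell from 13.5 and 14.2 to 1.19 and 0.666 FPKM, a difference of -2.96 (SE 0.26, adjusted p = 4.4e-04), and Kcnj5 from 15.9 and 20.3 to 4.69 and 4.82, a difference of -1.72. Kcnj11 differed by -1.66, from 27.4 and 24.5 FPKM to 11.9 and 4.63, libraries that differed from each other at 72 h. That call was lost with no filter and without either 0 h library or 72 h replicate 2. Kcnj2 was not called: its 72 h libraries, 6.42 and 37.6 FPKM, lay on either side of the 0 h libraries of 8.71 and 11.3 (adjusted p = 0.46). Kcnj4, another strong inward rectifier, had 0.369 and 0.500 FPKM at 0 h and 3.16 and 1.40 at 72 h, a difference of 1.14 (adjusted p = 0.016) that was not called after median-of-ratios or quantile scaling, nor without either 0 h library or 72 h replicate 1. The background channel Kcnk3 fell from 103 and 32.6 FPKM to 5.41 and 5.27, a difference of -3.22 (SE 0.50, adjusted p = 0.0022). Kcnn2 fell from 3.88 and 2.25 FPKM to a library listed at 0 and another at 0.202, and Kcne1 from 3.74 and 3.58 to 0.919 and 0.0449.

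At 24 h the changes were fewer. Of the 20 members, 5 were lower (Kcnj11 at -2.08, Kcnip2 at -1.44, Kcnj3 at -1.41, Kcnh2 at -1.21 and Kcna5 at -0.92) and 1 was higher, where 17.9% of all gene models were called, 15.4% higher and 2.55% lower. Kcnj2 had 24.1 and 33.2 FPKM at 24 h, above both 0 h libraries, and was not called in the fit without a replicate term (adjusted p = 0.19). With the replicate number as a block, 10 members were called, 8 lower and 2 higher: Kcnj2 was added to the higher genes, and Kcne1, Kcnk3 and Kcnq1 to the lower. The count also rested on single libraries, since it was 0 without 0 h replicate 1 or either 24 h library and 1 (Kcnk3) without 0 h replicate 2. Of 7 cardiomyocyte markers 2 were lower at 24 h (24500 to 27540 FPKM summed at 0 h, 16570 to 16700 at 24 h), with none at 0, and their part was not tested.

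**Figure D3:**
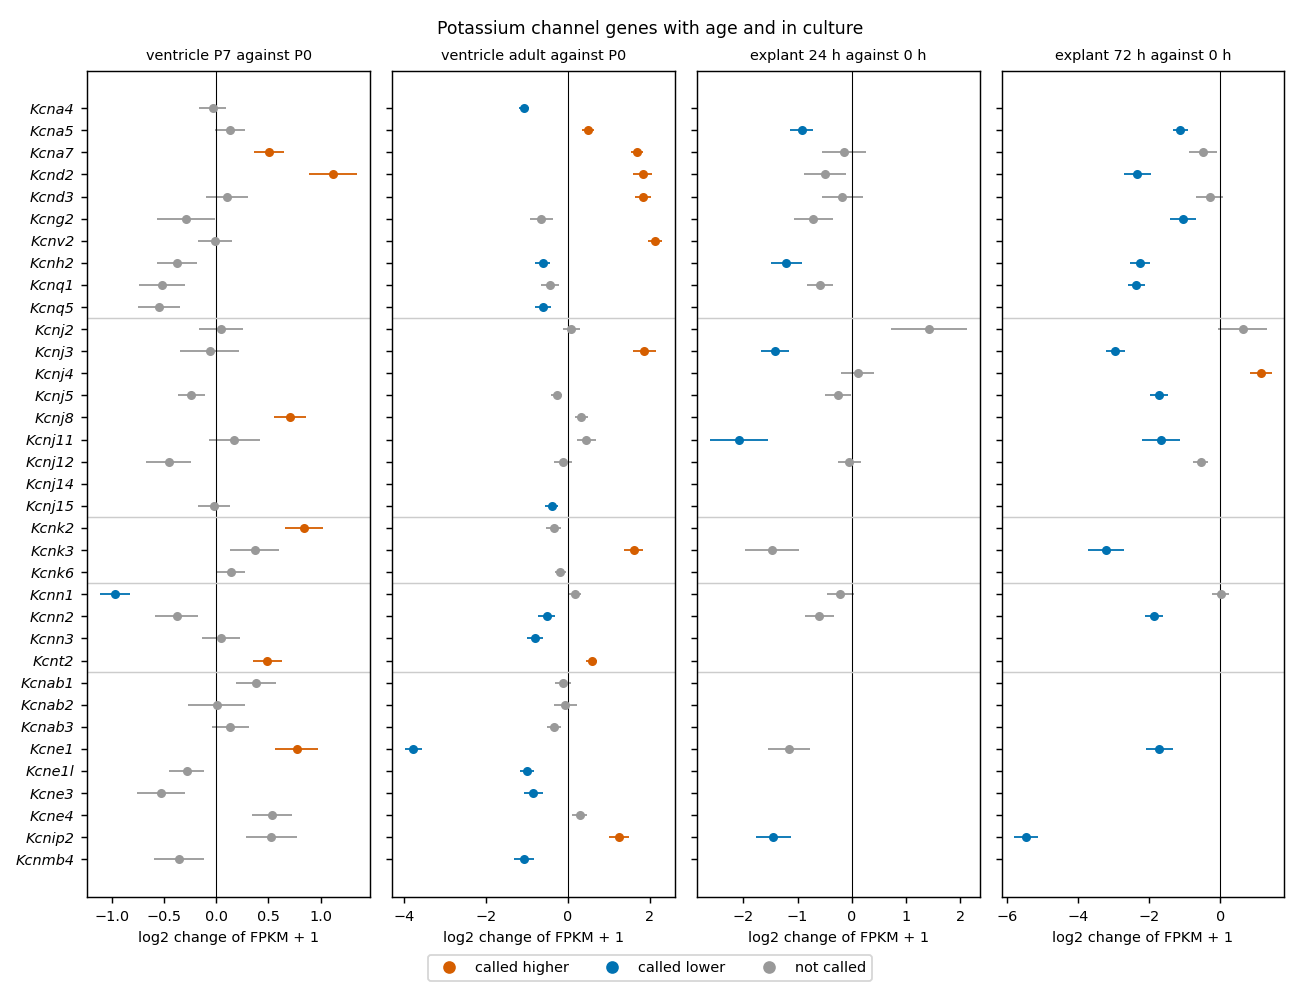
Difference in log2(FPKM + 1) of tested members, of the 35 shown (point, with its standard error as a line) in 4 comparisons, P7 and adult against P0 ventricle and 24 h and 72 h against 0 h explants. Orange marks members called higher, blue those called lower and grey those not called. Kcne1 at -3.77 in the adult and Kcnip2 at -5.46 at 72 h are the largest differences, and the horizontal axes differ between panels.

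Median-of-ratios scaling moved the median of all gene models at 72 h from 0.76 to 0.04. With it 15 members were lower and 1 higher at 72 h, and at 24 h 9 were lower and 1 higher. With quantile normalization the counts were 15 and 1 at 72 h and 8 and 1 at 24 h. The shares of all gene models called in these fits are not reported here, so these counts have no background beside them. Cell markers moved strongly over the same hours. The 7 cardiomyocyte markers summed to 24500 to 27540 FPKM at 0 h and 2869 to 3180 at 72 h, 6 of them called lower. All 3 tested macrophage markers of a list of 8 were higher (2.01 to 2.54 FPKM summed over the 8 at 0 h, 83.6 to 137 at 72 h), and 2 of 5 tested fibroblast markers were higher (11.8 to 19.1 against 19.6 to 24.0 over 8), with none of these lists at 0 in either group. Of 8 endothelial markers 3 were lower (31.9 to 64.7 against 14.2 to 26.6), as were 2 of 5 tested of smooth muscle and pericytes (74.4 to 116 against 12.3 to 13.4 over 8). The part of these markers in the channel differences was not tested. Kcnd2, Kcnip2, Kcnj3 and Kcnk3 were higher in adult than in P0 ventricle and lower after 72 h of culture, in comparisons that share no library. Of the members higher in the adult and tested in explants, 6 were lower at 72 h, 2 were not called and none was higher. Among all gene models these numbers were 553, 864 and 244.

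Other genes of the action potential were set beside the members. In the adult ventricle 7 of 18 tested channels, pumps and exchangers were higher and 5 lower than at P0 (median 0.33), with the sodium channel subunit Scn4b at 3.29 and the pacemaker channel Hcn2 at 2.62 on the log2 scale, and the T-type calcium channel Cacna1h at -3.24. After 72 h in culture none of 16 was higher and 8 were lower (median -0.76), including Scn4b at -3.44 and the sodium-calcium exchanger Slc8a1 at -2.80. Of 8 channel partners without a Kcn name, 1 was higher and 3 lower in the adult, and 2 higher and 3 lower at 72 h, where Abcc9, the sulfonylurea receptor of ATP-sensitive channels, differed by -3.39. Among 5 transcription factors known to act on cardiac potassium channel genes, Klf15 was higher in the adult (1.29) and lower at 72 h (-0.86). Rest, a repressor, was lower in the adult (-1.22) and higher at 72 h (1.36), and the Iroquois genes Irx3, Irx4 and Irx5 were lower in the adult (-0.49, -1.38 and -1.05). Among all gene models 13.4% were higher and 43.6% lower in the adult (median -0.36). At 72 h 46.8% were higher and 9.07% lower (median 0.76). The pattern of Rest was that of 3194 gene models and the pattern of Klf15 that of 553. The part of these genes in the levels of the members was not tested.

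Comparing preparations at P0 and in adults showed which members were lower in dissociated cells than in whole ventricle. Kcnj8 and Kcna5 had the largest negative differences both in adult cells at 0 h and in P0 isolated cells, and Kcnk2 and Kcnk6 came next. In day 7 sham hearts, where no test was run, Kcna5 and Kcnk6 were not lower in isolated cells. Kcna5 had 7.158, 7.447 and 6.273 FPKM there and 6.405 and 7.025 in ventricle. Kcnk6 had 1.94, 2.23 and 2.62 against 2.03 and 2.41. Kcnj8 (2.994, 3.03 and 5.615 against 17.8 and 17.3) and Kcnk2 (0.324, 0.303 and 2.88 against 8.06 and 6.68) were lower. In adult hearts 12 of 38 members were lower in 0 h explants than in ventricle and none was higher, close to the background, where 33.5% of gene models were called, 1.81% higher and 31.7% lower. At P0, 13 members were lower in isolated cells and 2 higher, where 54.5% of gene models were called, 53.7% lower and 0.708% higher. Preparation, procedure and any library batch cannot be told apart in these comparisons.

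Kcnj8 stood at 12.3 and 11.7 FPKM in adult ventricle and at 0.305 and 1.59 in explants at 0 h, -2.82 on the log2 scale (SE 0.46, adjusted p = 7.3e-05). At P0 it was at 10.2 and 8.57 in ventricle and at 0.913, 0.916 and 2.05 in isolated cells, -2.21 (SE 0.42, adjusted p = 3.2e-04). The ratio of Kcnj8 to Kcnj11, the pores of the vascular and the ventricular kind of ATP-sensitive channel, was 0.308 ± 0.0432 in adult ventricle and 0.0379 ± 0.0379 in explants (SD, n = 2), and 0.331 ± 0.0369 (n = 2) and 0.0710 ± 0.0286 (n = 3) at P0. Kcna5 had 10.7 and 10.5 FPKM in adult ventricle and 1.31 and 1.11 in explants (-2.39), and 7.75 and 6.72 in P0 ventricle against 0.917, 0.889 and 1.58 in isolated cells (-1.96). Kcnk2 differed by -1.36 in adults and -1.41 at P0, and Kcnk6 by -1.31 and -1.11. Kcnk3 differed by -1.13 in adults and -1.01 at P0, with explant libraries at 103 and 32.6 FPKM that lay far apart, and the adult call was lost without explant replicate 2 (-0.31) or either adult library, with no filter, with median-of-ratios scaling (-0.54) and with the compared groups fitted alone. Kcnip2, Kcnd2, Kcnq1 and Kcne1 were not called in either comparison; Kcne1 had 3.25 and 4.63 FPKM in adult ventricle and 3.74 and 3.58 in explants.

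**Figure D4:**
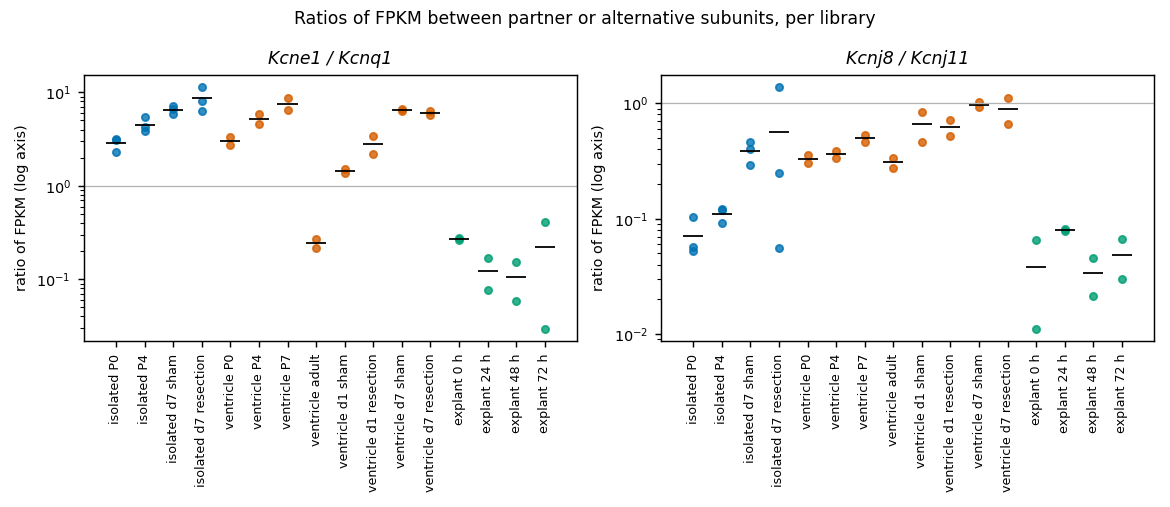
Ratio of FPKM of Kcne1 to Kcnq1 (left) and of Kcnj8 to Kcnj11 (right) in each of the 36 libraries (points, log axes), with the group mean as a horizontal mark and a grey line at a ratio of 1. Kcne1 is above Kcnq1 in every neonatal and operated group and below it in adult ventricle and all explants, and Kcnj8 relative to Kcnj11 is lower in P0 isolated cells and in explants than in ventricle.

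Markers of other cell types moved in the same direction. In 0 h explants 5 of 8 endothelial, 6 of 8 smooth muscle and pericyte, 8 of 8 fibroblast and 8 of 8 macrophage markers were lower than in adult ventricle. Summed levels were 227 to 253 against 31.9 to 64.7 FPKM for endothelial, 315 to 460 against 74.4 to 116 for smooth muscle and pericyte, and 439 to 445 against 11.8 to 19.1 for fibroblast markers, with no marker of these lists at 0. Macrophage markers summed to 143 to 192 against 2.01 to 2.54. At P0 all 8 endothelial markers were lower in isolated cells (293 to 360 against 21.3 to 116 FPKM), as were 4 of 8 of smooth muscle and pericytes (470 to 488 against 344 to 359), 7 of 8 of fibroblasts (745 to 1047 against 204 to 302) and 7 of 8 of macrophages (30.3 to 38.9 against 1.70 to 2.72). Their part in the levels of Kcnj8, Kcna5, Kcnk2 or Kcnk6 was not tested. At P0 the calls depended on scaling: with median-of-ratios or quantile scaling, which moved the median of all gene models from -0.57 to 0.01, Kcnj8 and Kcna5 stayed lower, Kcnab1 and Kcnj15 stayed higher, and the other 11 calls were lost. The higher calls of Kcnab1 and Kcnj15 were lost with a pseudocount of 0.1, without either P0 ventricle library and without isolated replicate 1 or 2, and that of Kcnj15 also with the compared groups fitted alone. The count was 4 without P0 ventricle replicate 1 and 8 without isolated replicate 1, Kcnj8 and Kcna5 being called each time. In the adult comparison it was 9 with median-of-ratios scaling, all lower, 7 lower and 2 higher with quantile normalization, and 7 without explant 0 h replicate 2. Kcnj8, Kcna5, Kcnk6 and Kcnt2 were called under every alternative of the adult comparison, left-out libraries included.

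Resection was compared with sham in ventricle at 1 and 7 days. At day 1 Kcnip2 was higher after resection and 5 members were lower, among them Kcng2 (silent subunit), Kcne4 (an accessory subunit that inhibits Kv pores), Kcnj8 and Kcnj5. Over all gene models 10.3% were called, 1.38% higher and 8.88% lower. Kcnip2 had 22.0 and 12.1 FPKM in sham and 42.9 and 43.9 in resected ventricle, a difference of 1.36 (SE 0.24, adjusted p = 0.0067). Kcng2 had 4.22 and 9.22 in sham and 0.793 and 2.09 after resection, -1.63 (SE 0.28, adjusted p = 0.0054). The groups of either gene did not overlap. For both, the sham libraries lay well apart. The sham libraries of Kcnip2 were also below those of unoperated P0 ventricle (41.2 and 33.1 FPKM), and the resected ones just above, which was not tested.

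Kcne4 had 4.03 and 4.78 FPKM in sham and 1.51 and 2.89 after resection (-0.79), beside 1.03 and 0.881 in unoperated P0 ventricle and 2.09 and 1.60 at P7. Kcnj8 differed by -0.58 (7.53 and 9.79 against 4.77 and 6.17 FPKM) and Kcnj5 by -0.45 (37.6 and 40.7 against 29.5 and 27.1). These calls were lost with median-of-ratios scaling, quantile normalization or no filter, where 1 member was higher (Kcnip2) and 1 lower (Kcng2). In total 6 members were called, and the count was 0 without sham replicate 2 or with the compared groups fitted alone, and 3 without sham replicate 1 or resection replicate 1. Among markers, 5 of 8 of macrophages were lower after resection (75.7 to 112 FPKM summed in sham, 32.3 to 33.9 after resection) and 2 of 8 of smooth muscle and pericytes (394 to 517 against 328 to 379), with none at 0, and no cardiomyocyte marker was called (28450 to 34100 against 25880 to 34250). Their part in the differences was not tested. The transcription factor Klf15 was lower after resection (-0.82), as were 3 of 18 tested channels, pumps and exchangers, Cacna1g and Cacna1h among them, with none higher.

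At day 7 no member was called in ventricle among 35 tested with limma (4 at an unadjusted p under 0.05), where 0.154% of all gene models were called, 0.147% higher and 0.00699% lower. Those 4 were Kcnd3 (0.679 and 1.55 FPKM in sham, 0.263 and 0.414 after resection), Kcnd2 (2.84 and 2.89 against 2.10 and 1.21), Kcnn3 and Kcnj15. Kcnip2 stood at 54.5 and 51.3 FPKM in sham and 47.7 and 49.4 after resection. Lung epithelium markers were higher after resection in these libraries (4 of 7 tested, 3.21 to 27.1 FPKM summed over 8 against 98.9 to 221, none at 0). The difference between the resection effects at day 7 and day 1 was called for 3 of 35 members, where 5.93% of gene models were called, 5.69% higher and 0.245% lower: it was positive for Kcng2 and the Kv beta subunit Kcnab2 and negative for Kcnip2. The count was 0 without sham replicate 2 or resection replicate 1 of day 1 or resection replicate 1 of day 7, and 6 without resection replicate 2 of day 1.

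Isolated cardiomyocytes 7 days after resection gave no called member among 28 tested with limma (6 at an unadjusted p under 0.05), where 1.08% of all gene models were called, 1.07% higher and 0.00761% lower. Kcnj3 came closest, with 1.63, 0.990 and 1.34 FPKM in sham and 4.00, 6.80 and 2.94 after resection, groups that did not overlap (difference 1.22, SE 0.28, adjusted p = 0.067). In a single fit of all 36 libraries, which tested 38 members, 5 were higher (Kcnj3, Kcne4, Kcnj15 and Kcnab1 among them) and Kcna5 was lower. The share of all gene models called in that fit is not reported here, and the 1.08% above does not apply to it. Without sham replicate 3 Kcnab1 and Kcne4 were called higher, and without resection replicate 2 Kcna5 was called lower. In these libraries 4 of 8 atrial markers were called higher after resection (47.5 to 105 FPKM summed in sham, 753 to 1353 after resection), as were all 8 lung epithelium markers (1.85 to 5.22 against 186 to 1197), with none at 0 in either group. Their part in the levels of Kcnj3 was not tested. The resection effects of isolated cells and ventricle at day 7 differed for none of 38 members in limma (5 at an unadjusted p under 0.05), where 0.0735% of gene models were called, 0.0401% higher and 0.0334% lower. Without sham replicate 3 of the isolated cells, Kcne4 and Kcnn3 were called.

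**Figure D5:**
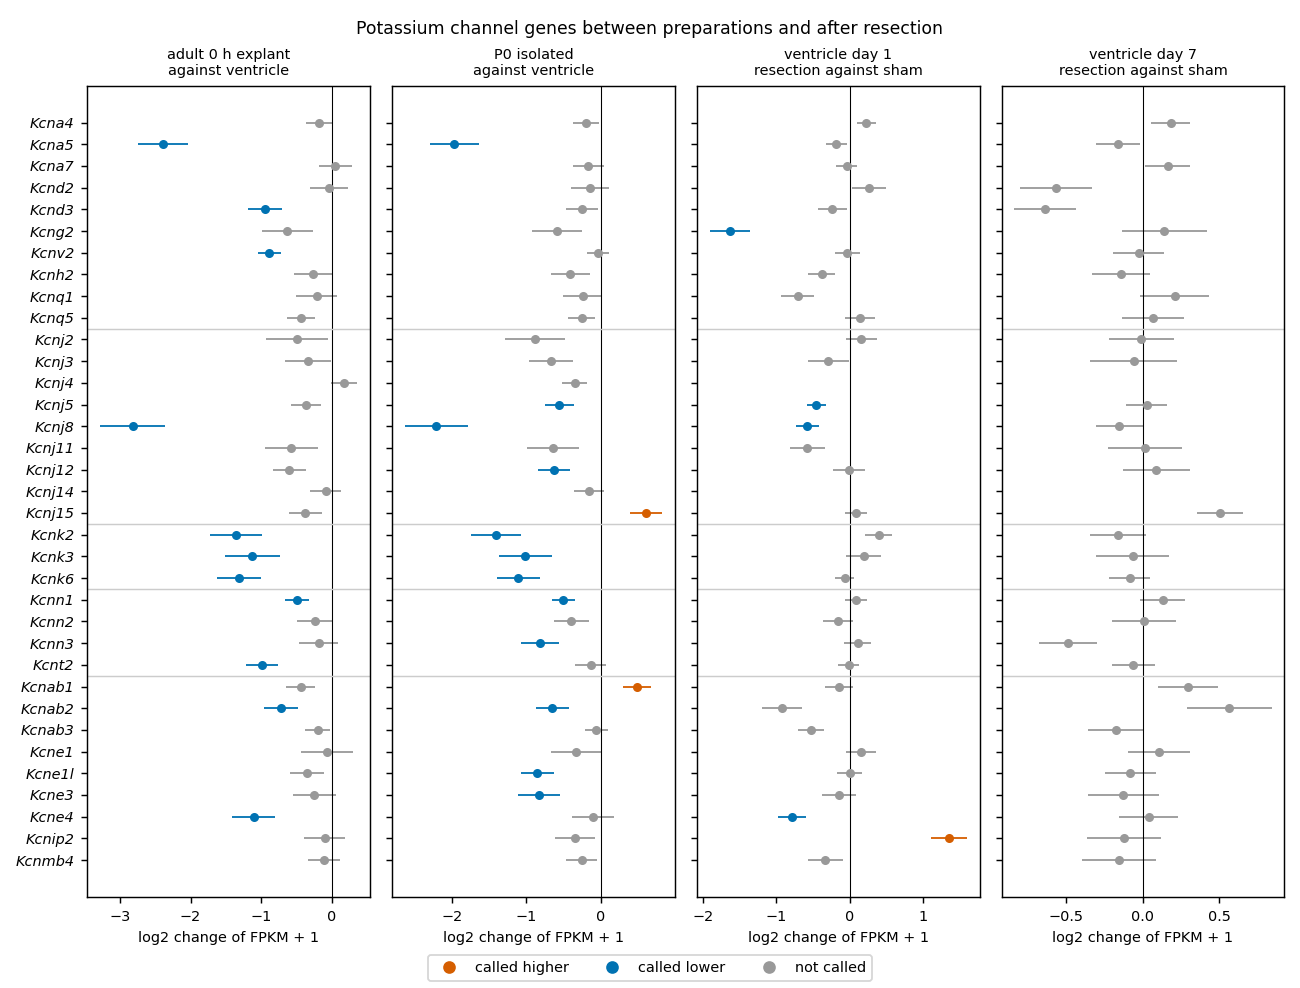
Difference in log2(FPKM + 1) of tested members, of the 35 shown (point, with its standard error as a line) between 0 h explants and adult ventricle, between P0 isolated cells and ventricle, and between resected and sham ventricle at day 1 and day 7. Orange marks members called higher, blue those called lower and grey those not called; Kcnj8 lies at -2.82 and -2.21 in the preparation panels and Kcnip2 at 1.36 at day 1, and the horizontal axes differ between panels.

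Levels in operated ventricles were also set beside those of unoperated ones, with no test, since age, operation and library preparation cannot be told apart there. Kcng2 ranged from 44.4 to 78.3 FPKM over the 8 unoperated ventricle libraries and from 0.793 to 9.22 over the 8 operated ones, sham included. In isolated cells of operated hearts at day 7 it ranged from 18.6 to 48.6 FPKM, and in those of unoperated hearts from 42.6 to 63.1. Kcnh2 showed a like gap, with 29.5 to 54.0 FPKM in unoperated and 7.43 to 17.8 in operated ventricle. Kcnj5 did not, with 21.7 to 32.4 FPKM in unoperated and 26.6 to 40.7 in operated libraries. Kcne1 was at 23.2 to 30.0 FPKM in the 4 ventricle libraries 1 day after operation and at 56.8 to 80.7 in the 4 taken at 7 days.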

How the data were processed

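RNA sequencing was done on 36 mouse heart libraries from total RNA. The authors deposited FPKM, 1 column per library; the submitters' processing notes name Bowtie (0.12.7), TopHat (1.3.2), Cufflinks (1.2.1), Cuffdiff with no version, and build mm9, and the annotation is not given in the sources used here. FPKM hold no depth, so no counting interval is given.

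Values were analysed as log2(FPKM + 1) with limma 3.58.1 under R 4.3.3, as group means with a variance prior that follows the mean, in 1 fit per preparation (16 ventricle, 12 isolated and 8 explant libraries) or over all 36 for comparisons across preparations. A gene model entered a fit if 2 or more of its libraries had 1 FPKM or above, with Benjamini-Hochberg adjustment over all models in it, and called at an adjusted p under 0.05, two-sided. The script was tested on simulated data. Tables and figures used Python 3.11.15, pandas 2.3.3 and Matplotlib 3.10.9.

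Replicate numbers paired the explants by the data alone: deviations from group means correlated at 0.385 to 0.617 for each of the 6 pairs of groups (with 2 libraries a group both numbers give 1 value). In isolated cells 6 of 18 and in ventricle 2 of 28 exceeded 0.1. For isolated P4 and P0, which were compared, the values were -0.087, 0.337 and 0.421. For isolated day 7 sham and resection they were 0.263, 0.119 and 0.041. No main fit held a replicate term, that of the explants included, so the p-values given ignore any pairing. The replicate block was an alternative setting only.

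The members, gene lists and comparisons were chosen with earlier results of these data known. In each of 12 comparisons the called members with the largest change, at most 8 per direction, were named, besides a fixed set of cardiac channels; levels of others (Kcnab3, Kcnj15, and genes at an unadjusted p under 0.05) were named after their values were seen. Counts cover all members, but values of some genes are not reported here. Of 116 listed marker and pathway genes 109 were found. Other settings tried were log2(FPKM + 0.1), all models unfiltered, quantile and median-of-ratios scaling, the replicate block, the compared groups alone, a single fit of all libraries, and each library left out. Kcnn4 did not reach the threshold. Markers of Schwann cells and skeletal muscle were checked too, and in these lists no more than 1 gene was called in any comparison. Erythroid markers were called higher (3 of 6) at P7, in the adult and in P0 isolated cells, and lower (4 of 6) in 0 h explants.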

Additional observations from a re-analysis of the deposited data

Results flagged for a closer look

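Differences of 3 members between the resection effects at day 7 and at day 1 in ventricle passed the test of the difference itself. For Kcng2 the effect at day 7 minus that at day 1 was 1.78 (adjusted p = 0.025 in limma), with a difference of 0.14 at day 7 and -1.63 at day 1. For Kcnab2 it was 1.49 (adjusted p = 0.044), with 2.21 and 2.24 FPKM in sham and 0.198 and 1.41 after resection at day 1, against 0.929 and 0.293 in sham and 1.04 and 1.67 after resection at day 7. For Kcnip2 it was -1.48 (adjusted p = 0.029). Of 8 macrophage markers 5 were higher in this difference, with sums at day 7 of 62.9 to 66.1 FPKM in sham and 106 to 144 after resection, none at 0. So were 5 of 7 tested lung epithelium markers. These summed over 8 genes to 3.21 to 27.1 FPKM in sham and 98.9 to 221 after resection at day 7. The part of either list was not tested. Each call was lost without sham replicate 2 or resection replicate 1 of day 1 or resection replicate 1 of day 7, and with median-of-ratios scaling only Kcnip2 stayed called.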

How the results depend on the processing

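Among counts of called members under settings other than leaving out a library, 61 stayed within 1.5 times of the main count and 20 did not. The shares of all gene models called in these settings are not reported here. Without the filter the counts were 2 for day 1 resection, 1 for isolated day 7 resection, 2 for explants at 24 h and 0 for the day 7 minus day 1 effect. With median-of-ratios scaling they were 2 for day 1 resection, 10 for explants at 24 h, 4 for P0 isolated cells against ventricle and 1 for the day 7 minus day 1 effect, and with quantile normalization 2 for day 1, 4 for P0 and 1 for the day 7 minus day 1 effect. With the compared groups fitted alone they were 0 for day 1, 7 for explants at 0 h against ventricle and 0 for the day 7 minus day 1 effect. In a single fit of all libraries they were 3 for P7, 3 for day 1, 6 for isolated day 7 resection, 10 for explants at 24 h and 1 for the day 7 minus day 1 effect. With the replicate block 10 members were called in explants at 24 h, and the block moved no other count by over 1.5 times. Leaving out 1 library gave 2 to 5 calls for P7, 14 to 18 for the adult, 0 to 8 for day 1, 0 to 2 for isolated day 7 resection, 0 to 1 for explants at 24 h, 11 to 15 at 72 h, 7 to 10 for explants against ventricle, 4 to 19 for P0 isolated against ventricle, 0 to 6 for the day 7 minus day 1 effect and 0 to 2 for isolated minus ventricle at day 7. A group left with 1 library was assumed to vary like the others. No named call changed direction. Over all named calls, 80 of 446 were lost in other settings and 101 of 285 with a library left out, and the cause was not tested. Depth is unknown, and a low FPKM cannot be weighed by its count.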
